A study of Mus musculus and Mus spretus with 72 samples.

Results

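The genes described here code for enzymes that conjugate or oxidise and reduce reactive small molecules. They were taken as the probes whose single gene symbol begins with Gst and a letter, Ugt, Sult, Aldh, Akr or Adh and fits the naming of glutathione transferases, UDP-glucuronosyltransferases, sulfotransferases, aldehyde dehydrogenases, aldo-keto reductases or alcohol dehydrogenases. The rule used names and no measured value, and found 69 probes of 69 genes among 22089 probes. They comprise 18 Gst, 17 Aldh, 12 Sult, 11 Akr, 7 Ugt and 4 Adh genes. Of these, 68 could be tested in liver/kidney and in brain and 67 in testis, where every group had at least 2 values. Sult2a8 was tested in no tissue, and Aldh1l1 was not tested in testis.

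Each of 72 arrays with 2 channels compared RNA of 1 male mouse, about 12 weeks old, with RNA pooled from 9 mice of the laboratory strain C57BL6 for the same organ. The groups were Mus musculus domesticus (dom), M. m. musculus (mus), M. m. castaneus (cas), M. musculus of a sub-species that the labels leave unnamed (ssp), and the separate species M. spretus (spretus). Brain, liver/kidney and testis each had 6 dom, 6 mus, 6 ssp, 3 cas and 3 spretus arrays. The comparisons ask how expression differs between sub-species and between species, and no group carried a treatment or an engineered allele. How liver and kidney were combined is not said in the labels. A value is a log2 ratio of a mouse to the pool after centring each array on its median, so levels of different genes cannot be set against each other. The sign, mouse over pool, is likely but not stated, and all signs would turn together if it were inverted.

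Conjugation attaches glutathione, glucuronic acid or sulfate to a drug, hormone or reactive product, which makes it more soluble and easier to excrete. Alcohol dehydrogenases and aldo-keto reductases interconvert alcohols and carbonyl compounds, and aldehyde dehydrogenases oxidise aldehydes to acids. Liver is the main site of this metabolism, kidney contributes strongly, and several of the genes are induced through the factors Nrf2 and the aryl hydrocarbon receptor.

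The arrays fell into sets that lack values at the same spots, 3 sets in liver/kidney and in brain and 2 in testis, and these sets overlap the groups. In liver/kidney, all 18 dom, mus and ssp arrays formed the first set, all 3 cas arrays and spretus 1 and 3 the second, and spretus 2 stood alone. In brain, the second set held 3 spretus, 2 cas, 2 mus and 3 ssp arrays, and cas 3 stood alone. In testis, it held 3 spretus, 3 cas and 2 mus arrays and dom 1, which the fit within that set left out. The limma array weight, which is lower where an array departs more from its group, was 0.20 for spretus 2, the lowest in liver/kidney. It was 0.95 for spretus 1 and 0.52 for spretus 3. How far noise of spretus 2 enters the results was not tested. Each array had a value at 42825 to 44832 spots, and duplicate spots of an array correlated with a median r of 0.559 (0.273 to 0.785). Array 08 of mus in brain is called mus in its title and domesticus in its channel label. It was kept as mus, and without it the number of members called in each brain comparison was unchanged.

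Promoter sequences of 61 of the 69 genes were matched in RefSeq (GRCm38.p6), as windows of 300 bases around the start of the gene. The antioxidant response element core TGACNNNGC, which Nrf2 binds, and the xenobiotic response element core GCGTG, which the aryl hydrocarbon receptor binds, were searched on both strands. The first was found in 5 of the 61 genes (8.20%), against 14.0% of all 27025 genes with a window, and the second in 17 of 61 (27.9%), against 35.2%. Counted by window, 12.4% and 32.4% of all 32851 held them. The 5 genes were Akr1cl, Aldh1a2, Aldh9a1, Gsta3 and Gstm7. A match is a description of these letters only. The 4 windows below are those of Gsta1 and Gsta2, whose ratios were highest together on single spretus arrays, of Gstp1, which was lower in spretus, and of Gsta3, the alpha-class gene with the Nrf2 core. Capitals mark GCGTG in the first 3 and the TGACNNNGC match in the last. The windows are chr9:78230419-78230718 on the plus strand, chr9:78347096-78347395 on the minus strand, chr19:4037863-4038162 on the minus strand and chr1:21240335-21240634 on the plus strand, in that order.
Gsta1: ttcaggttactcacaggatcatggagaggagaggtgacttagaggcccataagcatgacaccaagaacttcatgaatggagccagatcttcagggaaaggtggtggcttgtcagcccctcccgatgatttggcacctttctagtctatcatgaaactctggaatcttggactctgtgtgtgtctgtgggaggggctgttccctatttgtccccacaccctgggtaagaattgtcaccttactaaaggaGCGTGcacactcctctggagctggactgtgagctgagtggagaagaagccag
Gsta2: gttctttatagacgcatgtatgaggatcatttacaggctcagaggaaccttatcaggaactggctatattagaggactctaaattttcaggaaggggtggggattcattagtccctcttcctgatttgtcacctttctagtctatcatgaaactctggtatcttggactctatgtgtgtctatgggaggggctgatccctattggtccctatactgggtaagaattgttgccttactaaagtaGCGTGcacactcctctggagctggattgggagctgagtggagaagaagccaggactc
Gstp1: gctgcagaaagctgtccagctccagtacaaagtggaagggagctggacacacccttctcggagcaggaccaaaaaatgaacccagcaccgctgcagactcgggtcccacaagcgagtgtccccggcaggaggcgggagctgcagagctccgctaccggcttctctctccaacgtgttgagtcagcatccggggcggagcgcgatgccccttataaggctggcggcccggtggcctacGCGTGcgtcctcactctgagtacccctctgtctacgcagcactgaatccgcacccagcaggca
Gsta3: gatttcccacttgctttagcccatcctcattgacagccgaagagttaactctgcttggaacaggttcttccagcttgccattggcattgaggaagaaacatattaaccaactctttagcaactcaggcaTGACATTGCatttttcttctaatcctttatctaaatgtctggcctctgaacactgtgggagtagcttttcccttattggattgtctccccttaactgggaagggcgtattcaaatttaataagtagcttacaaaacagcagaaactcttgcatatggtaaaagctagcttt
Aligned end to end, the Gsta1 and Gsta2 windows were identical at 232 of 289 aligned bases (80.3%), and both hold GCGTG. Probe sequences were not used here, so how far a probe of one member also reads a close relative was not tested.

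**Figure D1:**
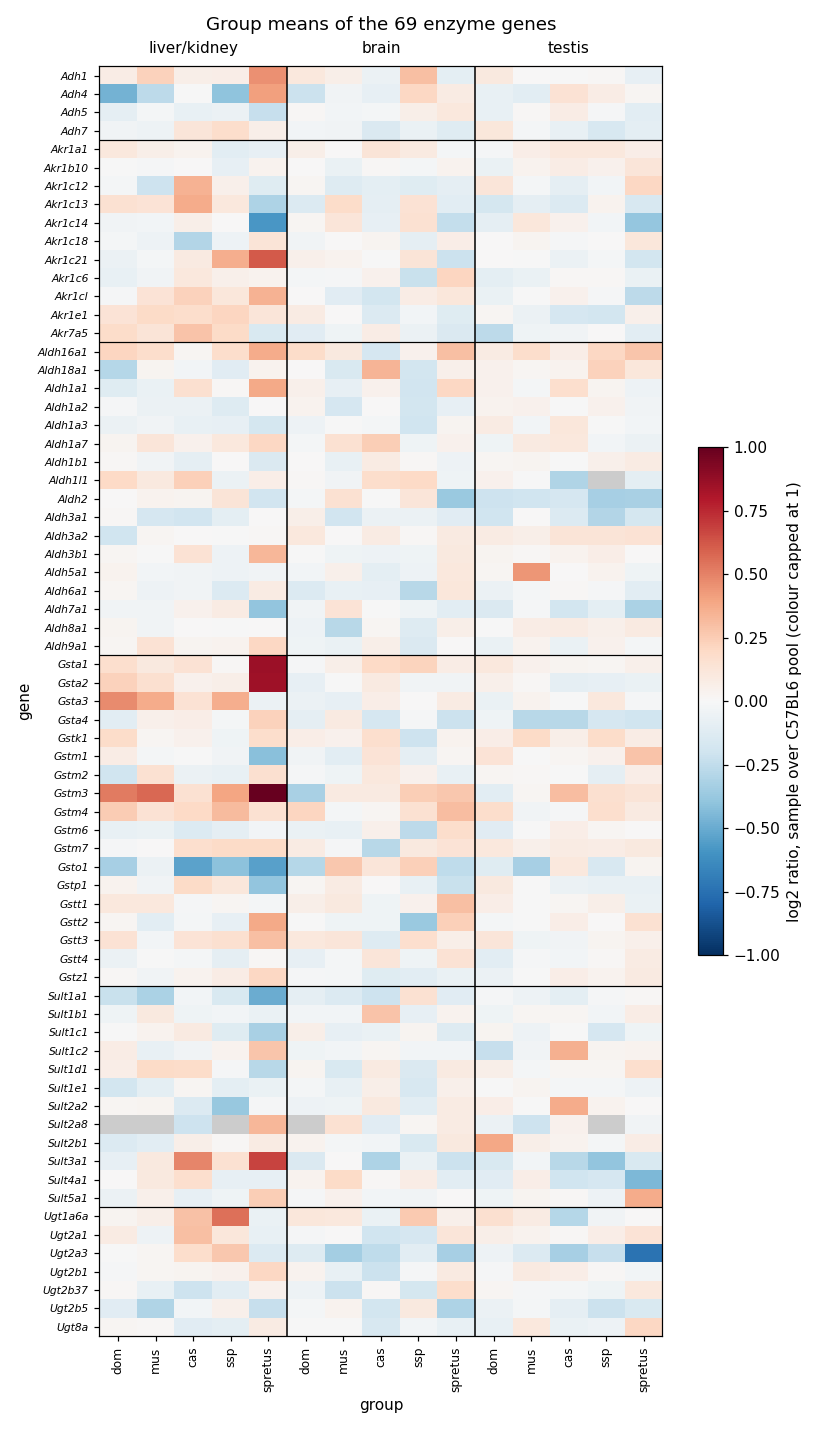
Group means of the log2 ratio to the pool for the 69 genes (rows, by family) in 5 groups of 3 tissues (columns), with colour capped at 1 and grey where a group had too few values. The darkest cells are Gstm3, Gsta1 and Gsta2 in spretus liver/kidney, and for Gstm3 the colour lies at the cap.

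In liver/kidney, 9 of 68 members differed between spretus and the average of the 4 musculus groups. Gstt2, Gsta2, Gstm3, Adh4, Aldh3b1 and Akr1c18 were higher, and Gstp1, Akr1c13 and Aldh7a1 were lower. That is 13.2% of the members against 7.49% of all probes tested (3.03% higher and 4.46% lower), by limma with Benjamini-Hochberg adjustment. The members' median difference was 0.05 and their median absolute difference 0.187, against 0.107 over all probes. By family, 4 of 18 Gst (3 higher), 2 of 11 Akr (1 higher), 2 of 17 Aldh (1 higher) and 1 of 4 Adh genes were called, and 0 of 11 Sult and 0 of 7 Ugt genes. At an unadjusted p under 0.05 limma gave 23 members (33.8%, against 21.6% of all probes), 5 Sult genes and 1 Ugt gene among them.

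These 9 calls rest on 3 spretus arrays that were unlike one another. No spretus array shared a set with a dom, mus or ssp array, so set and species cannot be told apart. Fits that use the sets can therefore take up species differences too, and how far they did was not tested. With quantile normalisation 5 of the 9 passed. With the set as a random block 0 members passed, and 0 passed within the second set, where 2 spretus arrays met 3 cas arrays. Without spretus 2 the count was 14, of which 4 were among the 9 (Gstt2, Gstp1, Gsta2 and Adh4). Without spretus 1 it was 11, with 6 shared, and without spretus 3 it was 10, with 7 shared. The shares of all probes called in these alternative fits are not given, so a moved count cannot be read as particular to the members. Markers of hepatocytes moved with the comparison: 5 of 12 were lower in spretus and 0 higher, with a median difference of -0.40. The median of these 12 markers per array lay between -0.25 and -0.00 in spretus and between 0.10 and 0.66 over the other groups. The part of this shift in the members' differences was not tested, and fewer cells of a type cannot be told apart from less RNA per cell. For kidney, 1 of 10 proximal tubule probes was lower, 1 of 6 distal tubule probes was higher and 0 of 5 glomerulus probes were called. Red cell probes were higher for 1 of 3, and 0 of 5 immune probes were called. Of the lists for cells of brain and testis, 1 of 4 choroid plexus, 2 of 5 Leydig, 2 of 6 Sertoli and 1 of 5 spermatocyte probes were called, and 0 of the neuron, astrocyte, myelin and spermatid probes.

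Among the glutathione transferases, Gstt2, of the theta class, had the 3 spretus arrays closest together among the 9. Its log2 ratios were 0.44, 0.40 and 0.30 in spretus and -0.07, 0.04 and -0.02 in cas. They ran from -0.13 to 0.12 in dom (median 0.06), from -0.33 to 0.06 in mus (-0.06) and from -0.18 to 0.03 in ssp (-0.08). Every spretus array stood above every musculus array, and Gstt2 was the 1 member of 68 without overlap, which 1.54% of all probes showed. The difference was 0.43 ± 0.07 (SE; 1.35-fold; limma adjusted p = 0.000716; higher in 3 of 3 arrays). With the set as a random block the adjusted p was 0.0545, and within the second set the difference was 0.39.

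Gstp1, the pi-class enzyme, was lower in spretus. Its log2 ratios were -0.37, -0.20 and -0.61 in spretus and 0.20, 0.17 and 0.21 in cas. In dom they ran from -0.09 to 0.30 (median -0.01), in mus from -0.26 to 0.12 (-0.01) and in ssp from -0.04 to 0.25 (0.12). Only the lowest mus array reached into the spretus range. The difference was -0.47 ± 0.09 (SE; adjusted p = 0.00215; lower in 3 of 3 arrays), and within the second set it was -0.68. Gstp1 and Gstt2 were called in all 24 fits that each left out 1 array.

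Gsta2, of the alpha class that handles steroids and lipid peroxidation products, had log2 ratios of 1.81, 0.00 and 0.74 in spretus 1, 2 and 3. The cas arrays were at 0.11, 0.01 and 0.01, and dom, mus and ssp together ran from -0.13 to 0.51. Spretus 1 and 3 were above every musculus array, while spretus 2 was inside their range. The difference was 0.73 ± 0.19 (SE; adjusted p = 0.0177; higher in 2 of 3 arrays), and without spretus 1 it was not called. Gsta1 followed the same arrays, at 1.95, -0.28 and 0.90 in spretus, with 1 dom array at 0.99 and the other musculus arrays at most 0.37. Its difference of 0.75 ± 0.24 did not pass (adjusted p = 0.0612).

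Gstm3, of the mu class, showed the largest difference of the 9, with log2 ratios of 1.23, 1.95 and 0.77 in spretus and -0.35, -0.07 and 0.87 in cas. The ratios ran from 0.21 to 1.54 in dom (median 0.28), from 0.34 to 0.90 in mus (0.54) and from 0.07 to 0.77 in ssp (0.36). The highest of the 3 spretus arrays was spretus 2, the array on which Gsta1 and Gsta2 were lowest, and dom 1 lay above the other spretus arrays. The difference was 0.91 ± 0.24 (SE; adjusted p = 0.0207), which did not pass without spretus 2. Gstm1, another mu-class gene, had ratios of -0.19, 0.11 and -1.17 and a difference of -0.42 ± 0.14 that did not pass (adjusted p = 0.0702).

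Over the 24 liver/kidney arrays, the 27 pairs of Gst genes of 1 class had a median Pearson r of 0.0746 for deviations from the group means, and 0 pairs passed after adjustment. Gsta1 and Gsta2 had the highest r, 0.859 (permutation p = 0.0406, adjusted 0.648), with a Spearman rho of 0.372 (permutation p = 0.124, adjusted 0.816). Without the 2 arrays farthest from the median r was 0.427, and within the first set of 18 arrays it was 0.506, so the high value rests on those arrays.

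Among the aldo-keto reductases, Akr1c13, of the steroid-metabolising 1C branch, had log2 ratios of -0.00, -0.72 and -0.20 in spretus and 0.08, 0.45 and 0.58 in cas. Dom, mus and ssp ran from -0.03 to 0.28. Spretus 2 and 3 were below every musculus array and spretus 1 was within their range. The difference was -0.50 ± 0.10 (SE; adjusted p = 0.00425), and without spretus 2 it did not pass. Akr1c18, the enzyme that inactivates progesterone, had ratios of 0.20, 0.05 and 0.16 in spretus and -0.01, -0.43 and -0.45 in cas, with the other groups between -0.14 and 0.09. Its difference of 0.24 ± 0.07 (adjusted p = 0.0486) was lost in 19 of 24 fits that each left out 1 array, those without spretus 1, 2 or 3 among them. Akr1c21, a hydroxysteroid dehydrogenase, was at 1.48, -0.07 and 0.43, and its difference of 0.52 ± 0.17 did not pass (adjusted p = 0.0697).

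Among the dehydrogenases, Aldh7a1, which acts in lysine breakdown, had log2 ratios of -0.23, -0.77 and -0.19 in spretus and 0.05, 0.04 and 0.04 in cas. The lowest dom array, at -0.35, was below spretus 1 and 3. The difference was -0.41 ± 0.10 (SE; adjusted p = 0.0109), and without spretus 2 it did not pass. Aldh3b1, which oxidises lipid-derived aldehydes, had ratios of 0.13, 0.78 and 0.09 in spretus and 0.14, 0.11 and 0.18 in cas, so that spretus 2 alone was high. Its difference was 0.31 ± 0.09 (adjusted p = 0.044), and within the second set, which lacks spretus 2, it was -0.03. The call was lost in 16 of 24 fits that each left out 1 array, that without spretus 2 among them. Adh4, an alcohol dehydrogenase that also acts on retinol, had ratios of 0.99, -0.07 and 0.31 in spretus and -0.29, -0.20 and 0.47 in cas. Dom, mus and ssp arrays reached at most 0.26, and the difference was 0.70 ± 0.21 (adjusted p = 0.0437). This call was lost in 15 of 24 such fits, those without spretus 1 or 3 among them.

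**Figure D2:**
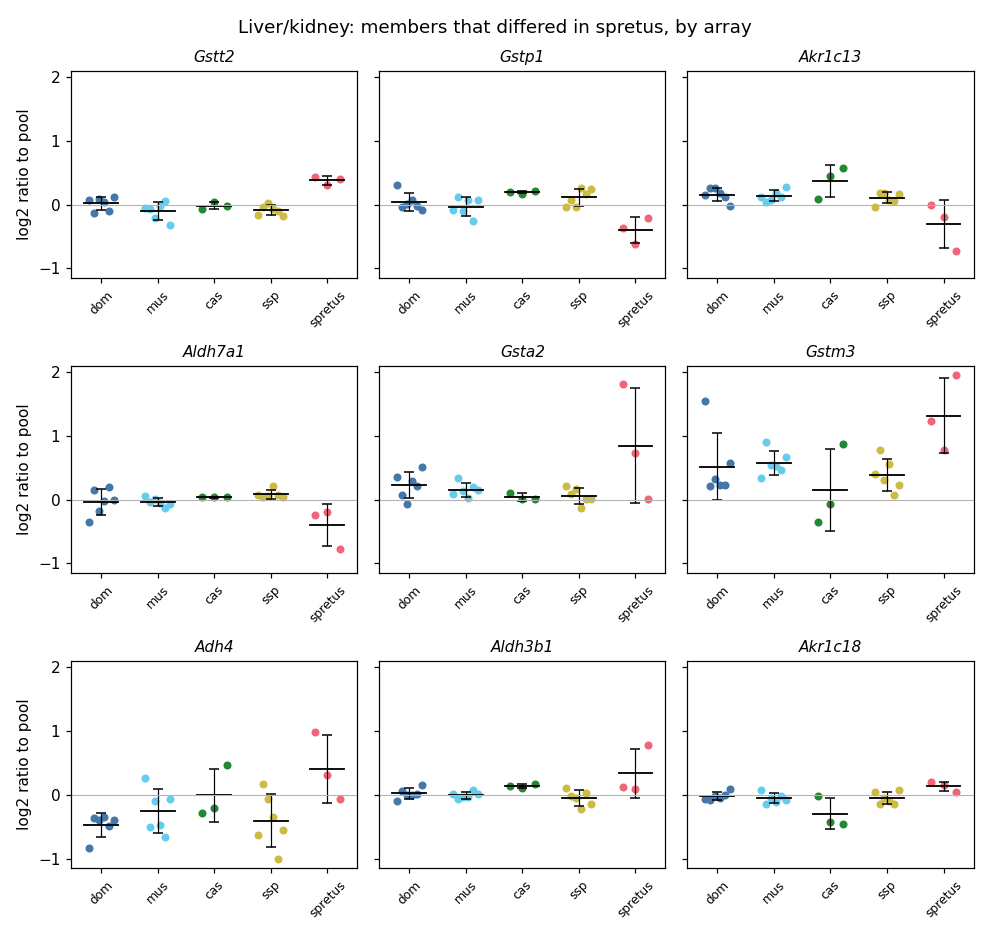
Log2 ratio to the pool on each liver/kidney array for the 9 members called in spretus, by group, with the group mean (line) and SD (bars). For Gstt2 the 3 spretus points lie above all others, while for Gsta2, Gstm3 and Aldh3b1 they spread widely.

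Counted after the values were seen, 13 members on spretus 1, 13 on spretus 2 and 11 on spretus 3 stood above every musculus array, which is 19.1%, 19.1% and 16.2% of the 68 members tested. Over all probes the shares were 7.12%, 13.8% and 9.65%. Gstt2 was above on all 3. Gsta2, Gsta4, Adh1, Akr1c18, Aldh16a1, Sult3a1 and Ugt2b1 were above on spretus 1 and 3 and not on spretus 2. Below every musculus array stood 6, 12 and 9 members, which is 8.82%, 17.6% and 13.2%, against 6.75%, 17.5% and 10.5% of all probes.

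Between the musculus groups, 0 of 68 members differed in liver/kidney by limma in each of 3 comparisons. Of all probes, 0.591% passed for mus minus dom, 1.11% for cas minus dom and mus, and 0.0436% for ssp minus the other musculus groups. At an unadjusted p under 0.05 there were 2 members for mus minus dom (2.94%, against 6.32% of all probes), 8 for cas (11.8%, against 14.8%) and 4 for ssp (5.88%, against 10.6%). In all 3 comparisons the members' share lay below that of all probes. The members with the smallest p were Gstm2 (0.35 ± 0.15, adjusted p = 0.659) for mus minus dom, Akr1c18 (-0.26 ± 0.08, adjusted p = 0.0959) for cas, and Ugt1a6a (0.42 ± 0.13, adjusted p = 0.24) for ssp. Ugt1a6a, which glucuronidates small phenols, ran from 0.36 to 1.07 in ssp (median 0.47), from -0.28 to 0.43 in dom (-0.01) and from -0.26 to 0.21 in mus (0.11). Its cas arrays were at 0.34, 0.41 and 0.14, so the ssp range overlapped both dom and cas. Aldh3a1 was the 1 member without overlap between mus and dom (-0.19 ± 0.09, adjusted p = 0.795), where 1.42% of all probes had none. Without cas 1, 1 member passed in the cas comparison, and within the first set 2 passed for ssp.

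Against the C57BL6 pool, the mean of the 4 musculus groups differed for 16 of 68 members in liver/kidney, 10 higher and 6 lower. This is 23.5% of the members, below the 31.4% of all probes that passed (17.4% higher and 14% lower). The pool is 1 reference sample, so its own spread is left out. With the set as a random block 0 members passed. Within the second set, where the only musculus arrays were 3 cas arrays, 0 passed too. Within the first set, of dom, mus and ssp arrays, the count stayed within 1.5 times. Hepatocyte markers were higher for 9 of 12, and their part in these differences was not tested. Gstm3 (0.41 ± 0.09, adjusted p = 0.00106), Gsta3 (0.34 ± 0.09, adjusted p = 0.00523), Gstm4 (0.23 ± 0.04, adjusted p = 7.16e-05) and Ugt1a6a (0.23 ± 0.06, adjusted p = 0.00602) were higher than the pool by most. Gstm3, Gsta3 and Gstm4 were each above 0 on 19 of 21 arrays.

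Gsto1, an omega-class transferase that reduces dehydroascorbate, was the member furthest below the pool in liver/kidney, at -0.33 ± 0.05 (adjusted p = 4.69e-05; below 0 on 18 of 21 arrays). Its ratios ran from -0.49 to -0.13 in dom (median -0.35), from -0.23 to 0.06 in mus (-0.02) and from -0.59 to -0.17 in ssp (-0.44). The cas arrays were at -0.60, -0.94 and -0.06 and the spretus arrays at -0.79, -0.88 and 0.03. Mus was the group nearest the pool, though mus minus dom (0.27 ± 0.14) did not pass (adjusted p = 0.822). Adh4 (-0.29 ± 0.08, adjusted p = 0.00704), Aldh3a1 (-0.11 ± 0.04, adjusted p = 0.0214) and Akr1c18 (-0.10 ± 0.03, adjusted p = 0.00489) were also lower than the pool, and the Aldh3a1 call was lost without cas 1 or without cas 3. Each musculus group counts alike in this mean, and for Akr1c18 the cas group mean was the lowest, at -0.30.

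In brain, the same Gsto1 probe separated most dom arrays from mus. Of 6 dom arrays, 5 lay between -0.43 and -0.39 and dom 1 was at 0.37, while the mus arrays ran from 0.15 to 0.36 (median 0.27). The ssp arrays ran from -0.05 to 0.72 (median 0.21), cas was at 0.32, 0.07 and -0.03 and spretus at -0.12, -0.16 and -0.47. Mus minus dom was 0.55 ± 0.13 (SE; higher in 6 of 6 mus arrays) and missed the threshold (limma adjusted p = 0.0618). Without dom 1 it was 0.68 ± 0.10 (adjusted p = 0.00666), and without mus 5 the adjusted p was 0.0493. So 0 of 68 members passed for mus minus dom in brain, where 0.223% of all probes did. At an unadjusted p under 0.05 there were 7 members (10.3%), near the 9.33% of all probes. With array weights the adjusted p of Gsto1 was 0.00413 and with quantile normalisation 0.0119. Aldh7a1 did not overlap between mus and dom (0.17 ± 0.06, adjusted p = 0.348), as did 1.39% of all probes.

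Spretus brain differed from the musculus groups for 2 of 68 members (2.94%), against 3.95% of all probes (1.88% higher and 2.07% lower). Aldh2, the mitochondrial enzyme that clears acetaldehyde, was lower, with log2 ratios of -0.24, -0.36 and -0.52 in spretus. It ran from -0.08 to 0.03 in dom (median -0.02), from -0.00 to 0.40 in mus (0.12) and from -0.00 to 0.31 in ssp (0.10), with cas at 0.24, 0.09 and -0.34. Only cas 3 reached into the spretus range, and the difference was -0.44 ± 0.10 (adjusted p = 0.00999; lower in 3 of 3 arrays). Cas 3, which stood alone in its set, had the lowest limma array weight in brain (0.18). Gstt2 was higher, as in liver/kidney, at 0.38, 0.14 and 0.21 in spretus. Its musculus arrays reached at most 0.13, and the difference was 0.36 ± 0.10 (adjusted p = 0.0357; higher in 3 of 3 arrays). The titles use the same animal numbers in both tissues, so the values are given side by side only. Gstt2 and Ugt2b37 were the 2 members without overlap, against 2.25% of all probes. Leaving out spretus 3 gave 0 calls, leaving out any of spretus 1, spretus 2 and cas 2 gave 1, and leaving out cas 3 gave 4. Aldh2 was lost in 1 of 24 such fits (without spretus 3), and Gstt2 in 4 (without spretus 1, 2 or 3, or cas 2). The count was 8 with array weights, 4 with quantile normalisation, and 0 with the first spot of each pair or within the second set. Of the brain markers, 0 of 5 neuron, 0 of 10 astrocyte, 0 of 5 myelin and 0 of 4 choroid plexus probes were called.

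Gstt2 was also the member with the smallest p for ssp in brain, where its 6 arrays ran from -0.67 to -0.00 (median -0.42). The difference from the other musculus groups was -0.34 ± 0.08 and missed the threshold (adjusted p = 0.0627). In brain limma called 0 members for ssp (0.097% of all probes) and 0 for cas (0.0097%). At an unadjusted p under 0.05 there were 12 members for ssp (17.6%, against 15.7% of all probes) and 5 for cas (7.35%, against 12%). Without cas 2, 2 members passed in each of these comparisons, and without ssp 2, 1 passed for ssp. Against the pool 1 member passed, Gstt2 (-0.12 ± 0.04, adjusted p = 0.0393), where 8.95% of all probes did. That call was lost in 13 of the 21 fits that left out a musculus array, and the count was 6 without cas 3, 2 without mus 3, ssp 2 or ssp 4, and 0 without cas 2, dom 1, dom 3, dom 5, mus 5 or ssp 5. It was 5 with array weights or quantile normalisation, 2 without centring, 3 within the first set, and 0 within the second set or with the set as a random block.

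In testis, 2 of 67 members (2.99%) differed in spretus, against 9.42% of all probes (5.63% higher and 3.79% lower). Sult5a1, a sulfotransferase, was higher, at 0.34, 0.24 and 0.53 in spretus, with all musculus arrays between -0.31 and 0.14. The difference was 0.38 ± 0.08 (SE; limma adjusted p = 0.00311; higher in 3 of 3 arrays). Ugt2a3, a UDP-glucuronosyltransferase, was lower, at -0.66, -0.88 and -0.68 in spretus. Its musculus arrays ran from -0.63 (dom 1) to 0.19, and the difference was -0.55 ± 0.13 (adjusted p = 0.00597; lower in 3 of 3 arrays). For both genes the groups did not overlap, as for 3.64% of all probes. Dom 1 was the only dom array in the set of the 3 spretus arrays. The count was 4 without dom 13 and 1 without spretus 2, where Ugt2a3 did not pass. It was 1 when arrays were quantile normalised, and 1 within the second set, as Sult5a1 did not pass (adjusted p = 0.12 and 0.0983). Sertoli cell markers were split in this comparison, 2 of 7 probes higher and 1 lower, with a median difference of 0.13. Their array medians were -0.02, -0.008 and 0.34 in spretus and -0.05 to 0.11 in the musculus groups, so only the highest spretus array lay above that range. Of the other testis markers, 1 of 5 spermatocyte and 1 of 5 spermatid probes were lower and 0 of 5 Leydig probes were called, and the part of these cells in the members' differences was not tested.

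Among the musculus groups in testis, limma called 0 of 67 members for mus minus dom (0% of all probes), 0 for cas (0.0193%) and 0 for ssp (0%). At an unadjusted p under 0.05 there were 2 members for mus minus dom (2.99%, against 6.59% of all probes), 4 for cas (5.97%, against 6.25%) and 4 for ssp (5.97%, against 4.86%). Against the pool 7 members passed, 1 higher and 6 lower, which is 10.4% against 13.1% of all probes (4.36% higher and 8.75% lower). Aldh2 (-0.23 ± 0.04, adjusted p = 0.000928), Sult3a1 (-0.21 ± 0.05, adjusted p = 0.00949), Gsta4 (-0.19 ± 0.03, adjusted p = 0.000518), which clears the lipid peroxidation product 4-hydroxynonenal, and Ugt2a3 (-0.19 ± 0.05, adjusted p = 0.00803) were lower. Aldh16a1 (0.13 ± 0.03, adjusted p = 0.00683) was higher. Without cas 1 the count was 4, and Sult3a1 was not among them. It was 11 with quantile normalisation, 3 within the first set, and 2 within the second set or with the set as a random block. Against the pool 2 of 5 spermatid probes were higher, 2 of 5 spermatocyte probes were lower and 1 of 7 Sertoli probes was lower, and their part was not tested.

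The spretus difference itself was set between tissues in 1 model with the animal as a random block. Liver/kidney and brain differed for 3 of 67 members (4.48%, against 1.9% of all probes, 0.792% higher and 1.11% lower), and liver/kidney and testis for 6 of 67 (8.96%, against 5.98%, 2.03% higher and 3.95% lower). The spretus difference of Gsta2 in liver/kidney exceeded that in brain by 0.76 ± 0.19 (limma adjusted p = 0.0199). It exceeded that in testis by 0.77 ± 0.19 (adjusted p = 0.00626). The Gsta2 differences were 0.73 in liver/kidney, -0.03 in brain and -0.04 in testis. For Akr1c21 the liver/kidney difference exceeded that in brain by 0.79 ± 0.19 (adjusted p = 0.0124) and that in testis by 0.68 ± 0.19 (adjusted p = 0.0157). Sult1d1, a sulfotransferase of catecholamines, went the other way, with -0.52 ± 0.15 against brain (adjusted p = 0.047) and -0.53 ± 0.15 against testis (adjusted p = 0.0181). Against testis, Gsta1 (0.74 ± 0.23, adjusted p = 0.0351) and Akr1cl (0.48 ± 0.15, adjusted p = 0.0374) were higher too, and Gstm1 (-0.66 ± 0.17, adjusted p = 0.0108) was lower. Such a value does not say which tissue differed. In testis itself Akr1cl was lower in spretus, by -0.27 to -0.21 over the alternative fits, though it was not called.

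These tissue differences depended on single arrays, of which the cas and spretus arrays were left out in turn (12 fits per pair of tissues). Against brain the count was 0 without spretus liver/kidney 1 or spretus brain 1, 1 without spretus brain 3 and 9 without spretus liver/kidney 2. Against testis it was 11 without spretus liver/kidney 2, 2 without spretus testis 1 and 3 without spretus testis 2. Every one of the 9 calls was lost in at least 1 such fit, the Gsta2 call against testis only without spretus liver/kidney 1. The counts were 1 against brain and 3 against testis when arrays were quantile normalised. Hepatocyte markers moved with the comparison here too: 2 of 12 were lower against brain and 2 of 12 against testis, with medians of -0.43 and -0.30, and their part was not tested. For mus minus dom, limma called 0 of 67 members against brain (0.0389% of all probes) and 0 against testis (0.17%). At an unadjusted p under 0.05 there were 4 members against brain (5.97%, against 7.44% of all probes) and 6 against testis (8.96%, against 6.49%).

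**Figure D3:**
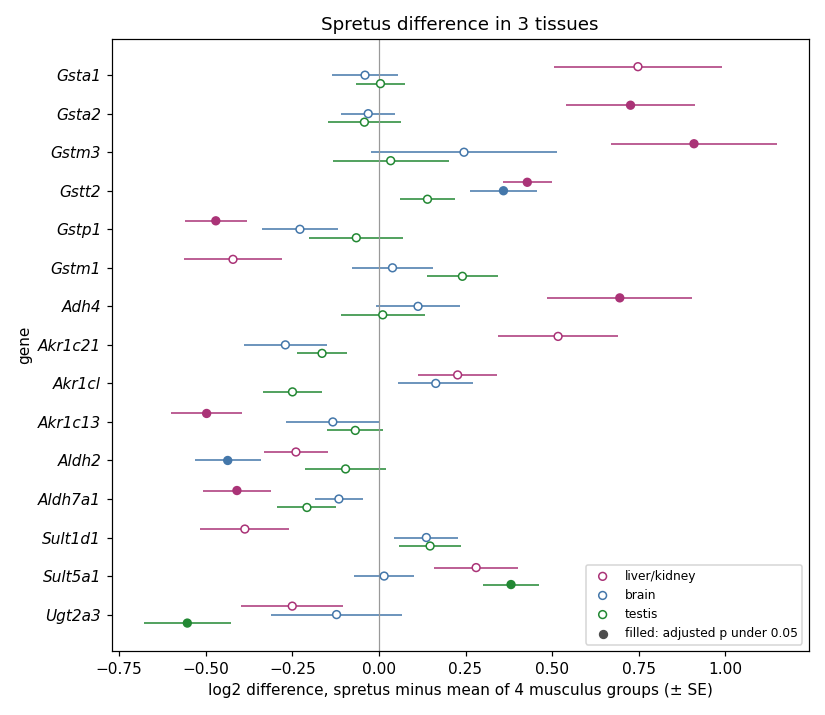
Difference of spretus from the averaged 4 musculus groups (log2, ± SE) for 15 members in liver/kidney, brain and testis, filled where the adjusted p was under 0.05. Gsta1, Gsta2 and Akr1c21 lie far right in liver/kidney and near or below 0 in brain and testis, while Gstt2 lies right of 0 in all 3.

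**Figure D4:**
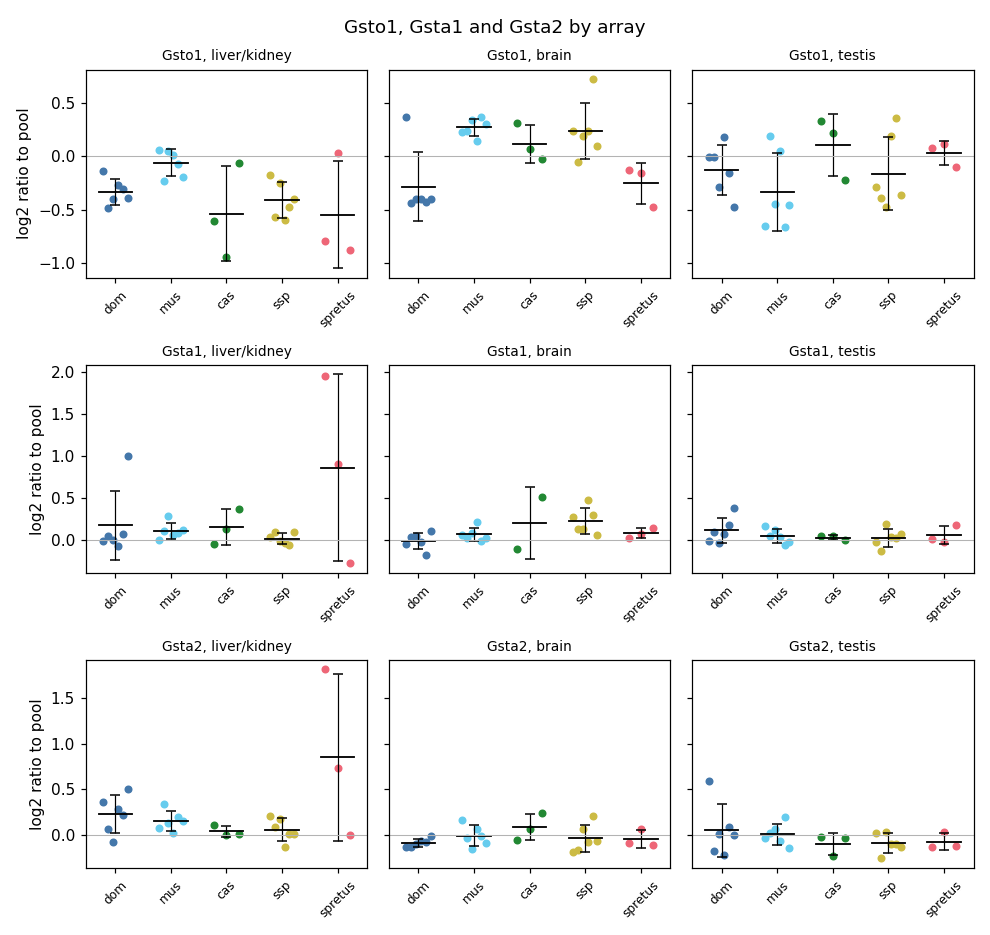
Log2 ratio to the pool on each array for Gsto1, Gsta1 and Gsta2 in 3 tissues, by group, with the group mean (line) and SD (bars). In brain 5 of 6 dom points for Gsto1 lie together near -0.40 and dom 1 lies at 0.37, and high Gsta1 and Gsta2 points are in liver/kidney on spretus 1 and 3.

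The spread between arrays of a group was wider for the members in liver/kidney. Their median within-group SD was 0.183, against 0.163 for all probes, and 12 of 68 (17.6%) lay above the value that 10% of all probes exceed. In brain it was 2 of 68 (2.94%, median SD 0.174 against 0.173) and in testis 6 of 67 (8.96%, 0.148 against 0.153). The 12 liver/kidney genes came from all 6 families and were led by Aldh18a1, a proline-synthesis enzyme (SD 0.435), Gsta1 (0.428), Gstm3 (0.420) and Gsta3 (0.420). Group means in liver/kidney ranged most widely in each family for Gstm3 (1.17), Adh4 (0.88), Sult3a1 (0.75), Akr1c13 (0.68), Ugt1a6a (0.61) and Aldh1a1 (0.51).

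**Figure D5:**
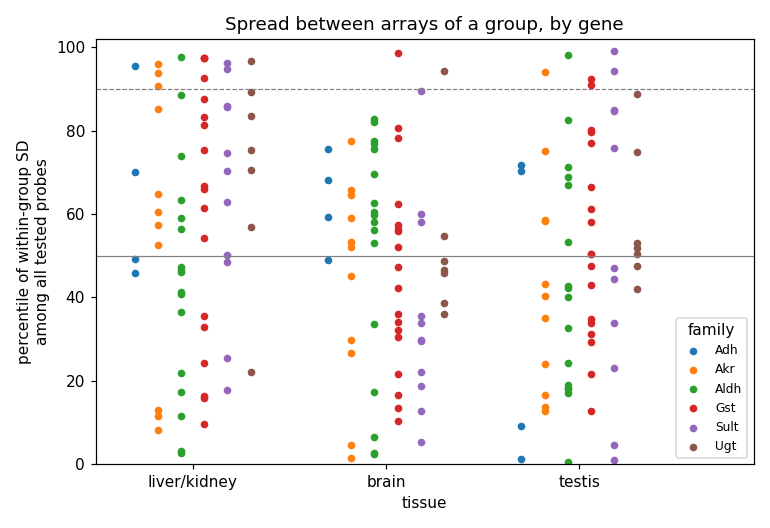
Percentile of each member's within-group SD among all probes tested in a tissue, by family, with lines at 50 and 90. In liver/kidney 12 of 68 members lie above the dashed line, in brain 2 of 68 and in testis 6 of 67.

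Genes that supply glutathione and cofactors, other enzymes of drug metabolism, transporters and regulators were followed as a list of 53 measured genes (57 probes). In liver/kidney 1 of 57 probes differed in spretus, where 7.49% of all probes did. It was Xdh, which oxidises purines (0.81 ± 0.13, limma adjusted p = 0.000485). Of glutathione and cofactor supply 0 of 13 probes passed, and of regulators and their targets 0 of 16. The list's median was 0.00, against -0.00 over all probes. In brain 1 probe was lower, Ggct (-0.33, adjusted p = 0.0188), which acts in glutathione turnover, where 3.95% of all probes passed. In testis 1 was higher and 1 lower, where 9.42% of all probes passed. For mus minus dom, cas and ssp the count was 0 in all 3 tissues by limma. Against the pool 22 of 57 probes passed in liver/kidney (13 higher and 9 lower), where 31.4% of all probes did. In brain and testis 5 each passed, where 8.95% and 13.1% of all probes did. The spretus difference was higher in liver/kidney than in brain for 1 probe, where 1.9% of all probes differed either way. It was higher than in testis for 3 probes, where 5.98% differed either way.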

How the data were processed

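The authors deposited 1 log ratio per spot and array, and log2 is taken as the scale of these deposited values, which ran from -5.714 to 5.772; the sources used here name no log base, direction, scanner, background correction or normalisation. Duplicate spots were averaged and arrays centred on their median. Groups came from the array titles. Models with 1 coefficient per group were fitted per tissue by lmFit and eBayes of limma 3.58.1 (R 4.3.3), and tissue differences over the 72 arrays with animal number as a random block (statmod 1.5.0). Calls are two-sided Benjamini-Hochberg adjusted p under 0.05 over all probes of a tissue. Genes named come from the members called, the 3 with the smallest p where fewer than 3 were called, and for the pool the 4 largest in each direction. Not all of those 3 are named in the text, and other genes were chosen after their values were seen. Members and lists were chosen with earlier results of these data known. Nothing in the labels separates replicates beyond animal numbers. Numbers did not pair arrays of different groups in a tissue: deviations of the same number had a median r of -0.01 over 81 pairs. The block joins the tissues of 1 animal number and group, for which the median r was 0.02 over 72 pairs. For other numbers of the group in different tissues it was -0.01. Alternatives were array weights, no centring, 1 spot of each pair, quantile normalisation, complete probes, fewer groups, sets of arrays and leaving out each array. The fit was tested on simulated data. The number of arrays limits the precision.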

Additional observations from a re-analysis of the deposited data

Results flagged for a closer look

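In groups of 6 arrays, 1 array stood apart from the rest by Dixon's criterion in 16 of 144 groups tested for the named genes. The criterion flags about 1 in 20 unselected groups. The named genes were picked on these same data, so the rates cannot be set against each other. In liver/kidney, dom 1 was the lowest of its group for Adh4 (-0.83) and the highest for Gsta3 (1.24) and Gstm3 (1.54). Ssp 4 was highest for Aldh7a1 (0.22), ssp 5 for Ugt1a6a (1.07), and ssp 6 was lowest for Sult2a2 (-1.30). In brain, dom 1 was highest for Gsto1 (0.37) and ssp 5 for Gsto1 in its own group (0.72), and mus 5 was highest for Aldh7a1 (0.24) and Gstt1 (0.51). In testis, dom 13 was lowest for Akr1cl (-0.47) and highest for Sult1c1 (0.14), mus 5 lowest for Sult1c1 (-0.42) and dom 3 lowest for Sult1c2 (-1.13). Ssp 2 was highest for Aldh18a1 (0.99) and lowest for Ugt1a6a (-0.71).

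The spretus difference was unlike between tissues for 9 pairs of gene and tissue, each by the limma test of the difference itself. Liver/kidney minus brain was 0.79 for Akr1c21, 0.76 for Gsta2 and -0.52 for Sult1d1. Liver/kidney minus testis was 0.77 for Gsta2, -0.66 for Gstm1, 0.68 for Akr1c21, -0.53 for Sult1d1, 0.74 for Gsta1 and 0.48 for Akr1cl.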

How the results depend on the processing

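Of the counts of members called, 124 stayed within 1.5 times under alternatives other than leaving out an array and 26 moved. A count of 0 that remained 0 is among those that stayed. For those that moved, the cause was not tested unless fewer arrays entered. The shares of all probes called under the alternatives, or with an array left out, are not given. A moved count therefore cannot be read as particular to the members. Liver/kidney: spretus 9 became 0 with the set as a random block, 0 within the second set and 5 with quantile normalisation; pool 16 became 0 with the random block and 0 within the second set; ssp 0 became 2 within the first set. Brain: spretus 2 became 8 with array weights, 4 with quantile normalisation, and 0 with the first spot of each pair or within the second set; pool 1 became 5 with array weights or quantile normalisation, 2 as deposited, 3 within the first set, and 0 with the random block or within the second set; mus minus dom 0 became 1 with array weights or quantile normalisation. Testis: pool 7 became 2 with the random block, 11 with quantile normalisation, 3 within the first set and 2 within the second; spretus 2 became 1 with quantile normalisation and 1 within the second set. Tissue differences in spretus became 1 (brain) and 3 (testis) with quantile normalisation.

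Leaving out each array in turn gave, in liver/kidney, 6 to 14 (spretus), 14 to 19 (pool), 0 to 1 (cas) and 0 to 0 (mus minus dom, ssp). It gave, in brain, 0 to 4 (spretus), 0 to 6 (pool), 0 to 1 (mus minus dom), 0 to 2 (cas) and 0 to 2 (ssp), and in testis 1 to 4 (spretus), 4 to 8 (pool) and 0 to 0 (mus minus dom, cas, ssp). For spretus it gave 0 to 9 for liver/kidney minus brain and 2 to 11 for liver/kidney minus testis. The replicate number as a block left all these counts within 1.5 times (Gstt2 in brain spretus 0.36, adjusted p = 0.0367). Signs turned, with no called value among them but Aldh3b1, for Aldh3b1 in liver/kidney spretus within the second set (-0.031), Sult1b1 in brain cas within the second set (-0.023) and Sult2a2 in testis cas without cas 1 (-0.032, against at most 0.54 without another array).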
